A study of Mus musculus with 6 samples.

Results

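The Slc25 genes encode the mitochondrial carrier family, the transporters that move nucleotides, phosphate, organic acids, amino acids, cofactors and acylcarnitines across the inner mitochondrial membrane. Members were taken by name: every probe set of the array whose platform annotation gives a single gene symbol beginning with Slc25a, apart from Slc25a14 and Slc25a27, which belong with the uncoupling proteins. This gave 42 of the 18193 genes with such a symbol, read by 88 of the 45037 probe sets without controls. The arrays compare brown fat from between the shoulder blades (interscapular) with white fat from beside the epididymis, taken from C57BL/6 males 10 to 12 weeks old that had no treatment and lived at ambient temperature. Each tissue is represented by 3 Affymetrix mouse 430_2 arrays. The study's design says that both tissues came from 3 mice, but the labels do not say which arrays share a mouse. Arrays were therefore compared as unpaired samples, and a fit with the replicate number as a block is given as an alternative. Each kind of fat came from 1 depot, so kind and depot cannot be told apart.

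Mitochondrial carriers are built from a repeated fold of membrane helices and most exchange one small molecule for another. The inner membrane is otherwise closed to these molecules, so carriers link ATP synthesis, fat oxidation and the export of carbon for fat synthesis to the rest of the cell. Brown fat is rich in mitochondria and burns fat for heat through uncoupling protein, itself a relative of these carriers, while white fat cells hold few mitochondria and store triglyceride.

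Signals below are quantile-normalised between arrays, on a linear scale, and are listed in the order of replicates 1, 2 and 3. A signal reads 1 probe set, so it can be compared between arrays but not between genes. Differences are mean log2 signals of brown minus white with their standard error (SE), tested with limma over the 19819 probe sets that 3 or more of the 6 arrays called present, and a gene is called higher in a tissue when the Benjamini-Hochberg adjusted p is below 0.05. Each gene is represented by its brightest tested probe set. Probe sets called present made up 35.6% to 37.5% of the brown arrays and 45.2% to 45.8% of the white arrays, and the deposited median signal was 37.6 to 39.4 in brown and 52.1 to 52.5 in white, before normalisation. The number of arrays limits the precision of every value. In whole tissue, fewer cells of a type and less RNA per cell cannot be told apart.

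Of the 42 genes, 31 passed the detection filter. Brown was higher for 19 of these and white for 8, leaving 4 without a call. These are 61.3% and 25.8% of the tested members, against 27.7% and 32.2% of all 10264 genes tested, of which 60.0% were called in either direction. By probe set, 38 of the family's 58 tested were higher in brown (24.6% of all) and 9 in white (29.9% of all), with 54.5% of all called in either direction. Among members called present in both tissues, the coenzyme A carrier Slc25a42 and the carnitine-acylcarnitine carrier Slc25a20 differed most towards brown. The orphan carrier Slc25a34 was absent on all white arrays, so the size of its difference, and its place in that order, is not fixed. Those that differed most towards white were Slc25a24, a calcium-regulated carrier of ATP-Mg and phosphate, and Slc25a10, the dicarboxylate carrier. The median log2 difference of the 31 genes was 0.77, with quartiles of -0.27 and 1.36, beside a median of -0.043 and quartiles of -0.59 and 0.48 for all genes tested. For 27 of the 31 members (87.1%) all arrays of one tissue lay above all arrays of the other, against 67.3% of all genes. A difference of 2-fold or more was called for 10 of the 31 members towards brown and for 3 towards white. The corresponding shares of all 10264 genes were 10.9% and 14.4%. The signals as deposited called 17 members for brown and 10 for white, and gave a family median of 0.50 and a median over all genes of -0.50. Centring each array on its median gave 21 and 6. Shares of all genes called under these scalings are not given, so these counts show only how the calls of members moved.

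**Figure D1:**
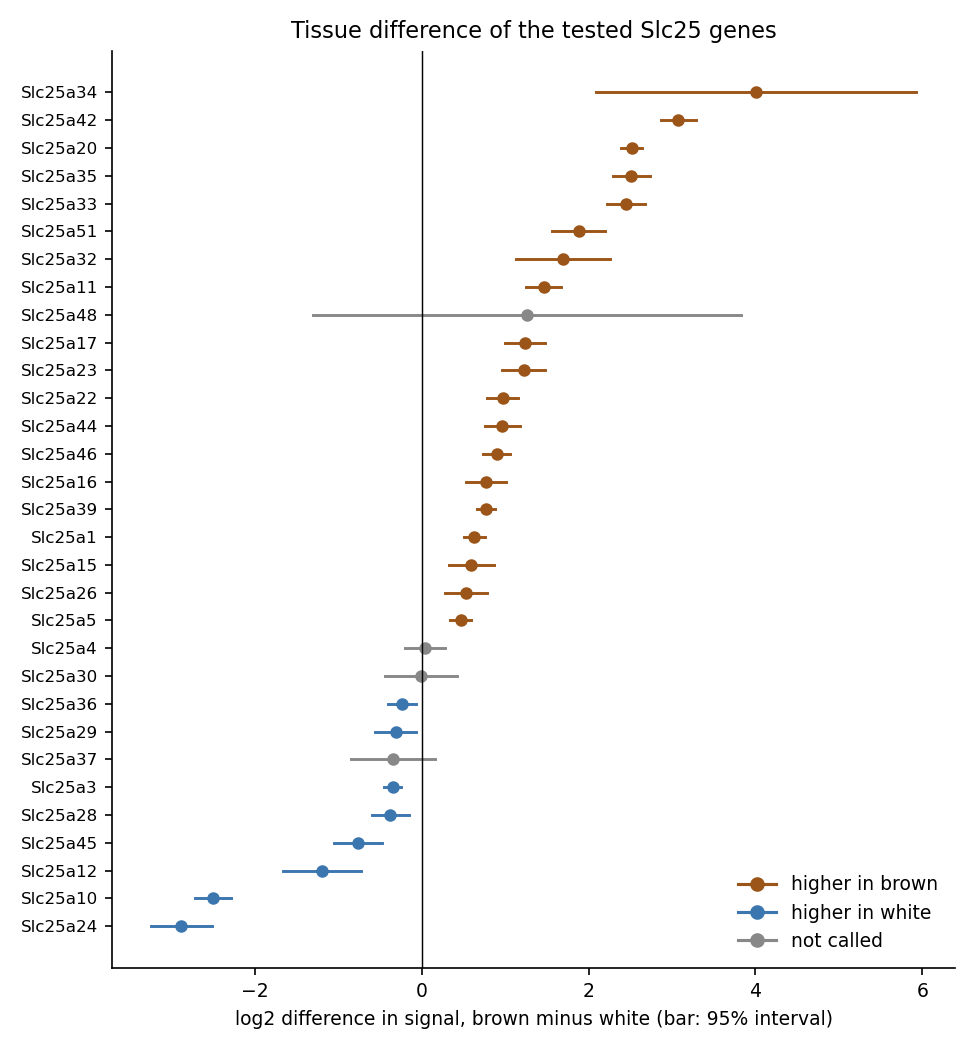
Log2 difference in signal (brown minus white, x axis) of the 31 tested Slc25 genes, with points at the estimate, bars for the 95% interval of the limma fit and colour for the call. Points run from 4.01 for Slc25a34, which no white array called present, to -2.89 for Slc25a24, with 19 called higher in brown, 8 called higher in white and 4 in grey not called.

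A list of oxidative phosphorylation subunits, gathered by symbol, gave a comparison within the same organelle. Brown was higher for 71 of its 76 tested genes and white for 2, and 3 had no call, with a median log2 difference of 1.36 and quartiles of 0.93 and 1.81. The carriers covered a wider span than these subunits in the lower part of the distribution, and the difference between the lists was not tested.

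**Figure D2:**
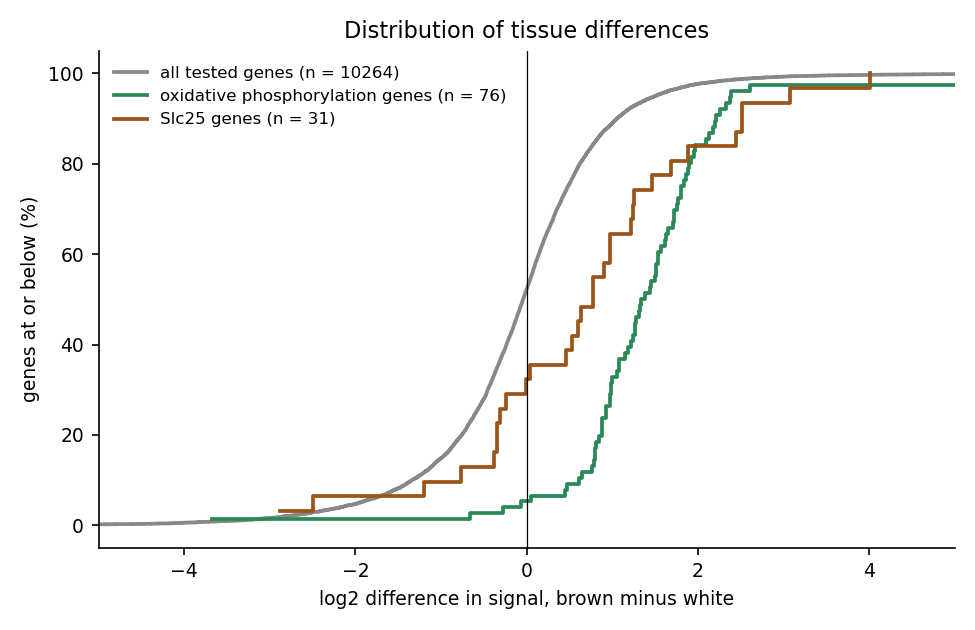
Cumulative share of genes (y axis, percent) at or below each log2 difference, brown minus white (x axis, drawn from -5 to 5), for all 10264 tested genes in grey, 76 oxidative phosphorylation genes in green and 31 Slc25 genes in brown. The Slc25 curve lies between the others over its middle part, with medians of -0.043, 0.77 and 1.36 for all genes, carriers and oxidative phosphorylation.

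The promoters of Slc25a34 and Slc25a42, estimated highest in brown, and of Slc25a24 and Slc25a10, highest in white, are shown because these genes differed most between the tissues. Each window holds 250 bases before and 50 after the RefSeq start on GRCm38.p6, 5′ to 3′ on the strand of the gene, and capitals mark CG dinucleotides.
Slc25a34 (chr4:141623785-141624084, minus strand): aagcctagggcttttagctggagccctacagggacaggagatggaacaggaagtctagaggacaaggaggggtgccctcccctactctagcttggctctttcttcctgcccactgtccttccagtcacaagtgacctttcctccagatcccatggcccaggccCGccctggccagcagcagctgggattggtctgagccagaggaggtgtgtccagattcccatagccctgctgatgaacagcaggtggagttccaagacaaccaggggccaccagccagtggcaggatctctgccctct
Slc25a42 (chr8:70212232-70212531, minus strand): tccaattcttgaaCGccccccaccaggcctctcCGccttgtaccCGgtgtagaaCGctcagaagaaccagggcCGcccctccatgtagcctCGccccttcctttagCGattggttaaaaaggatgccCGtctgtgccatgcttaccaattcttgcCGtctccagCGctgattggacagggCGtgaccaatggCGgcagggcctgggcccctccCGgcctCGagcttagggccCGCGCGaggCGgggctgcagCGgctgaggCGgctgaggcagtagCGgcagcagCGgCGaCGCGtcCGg
Slc25a24 (chr3:109122899-109123198, plus strand): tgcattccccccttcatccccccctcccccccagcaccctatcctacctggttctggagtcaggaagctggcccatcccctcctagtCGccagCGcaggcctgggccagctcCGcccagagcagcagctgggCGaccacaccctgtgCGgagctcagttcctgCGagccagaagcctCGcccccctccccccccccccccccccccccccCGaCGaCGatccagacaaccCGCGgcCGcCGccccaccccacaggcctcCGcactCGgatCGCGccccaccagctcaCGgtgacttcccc
Slc25a10 (chr11:120491587-120491886, plus strand): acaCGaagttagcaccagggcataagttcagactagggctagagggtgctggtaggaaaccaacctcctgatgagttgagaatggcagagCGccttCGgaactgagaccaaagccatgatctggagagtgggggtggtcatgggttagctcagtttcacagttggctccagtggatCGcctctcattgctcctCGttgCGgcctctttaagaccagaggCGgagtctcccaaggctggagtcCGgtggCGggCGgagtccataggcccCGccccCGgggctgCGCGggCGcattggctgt
The Slc25a34 window held 1 CG dinucleotide and the Slc25a42 window 26, while the Slc25a24 and Slc25a10 windows held 19 and 15. RefSeq windows were matched for 33 members, whose median was 19 CG dinucleotides, with Slc25a34 the lowest at 1 and Slc25a15 the highest at 51. The median over all 32851 windows was 7, but these include several windows for some genes, whereas each member was counted by 1 window. Where a gene had several, the window counted and printed was the one with the lowest genomic coordinate. On the minus strand that is the one furthest downstream. The matched members called higher in brown had a median of 24 (13 genes) and those called higher in white of 21.5 (8 genes), and the ranges, 1 to 51 and 7 to 32, overlapped. Windows were also searched on both strands for a nuclear respiratory factor motif (GCGC, then any base, then TGCGC), an estrogen-related receptor motif (TNAAGGTCA) and the cAMP response element (TGACGTCA, which reads the same on both strands). The first was found in the windows of Slc25a3 and Slc25a31, or 6.06% of 33 members against 5.19% of all genes. No member's window held the receptor motif, which 1.43% of all genes hold, and the cAMP element was in those of Slc25a25 and Slc25a36 (6.06% against 2.03%). A gene was counted for a motif when any of its windows held it. These are matches of letters in a short window and show no binding.

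Carriers of acylcarnitine and coenzyme A were higher in brown for all 4 tested genes, with a median log2 difference of 1.88. Slc25a20 brings acylcarnitines into the matrix for fat oxidation. Its signals were 6056, 6508 and 6002 on the brown arrays and 1113, 1036 and 1096 on the white arrays, a log2 difference of 2.52 (SE 0.0568, adjusted p = 1.03e-09). Every brown array was above every white one by a wide margin, and a second probe set of the gene, with brown signals of 2978, 2746 and 2875 and white signals of 337, 295 and 298, differed by 3.21.

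Slc25a42, whose human protein takes up coenzyme A in exchange for adenine nucleotides, read 2225, 2403 and 2332 in brown and 253, 316 and 259 in white. The groups were far apart, with a log2 difference of 3.08 (SE 0.0955, adjusted p = 5.08e-09). Slc25a17, the related carrier of the peroxisome membrane, had signals of 347, 378 and 378 against 155, 166 and 146, a difference of 1.24 (SE 0.108, adjusted p = 6.26e-06). Slc25a16 is related to a yeast carrier needed for mitochondrial coenzyme A. It showed the smallest difference of the group, 0.77 (adjusted p = 0.000163), from 387, 475 and 407 in brown and 246, 241 and 251 in white, and its call was lost with scaling to the spike-in controls (0.30, adjusted p = 0.107).

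**Figure D3:**
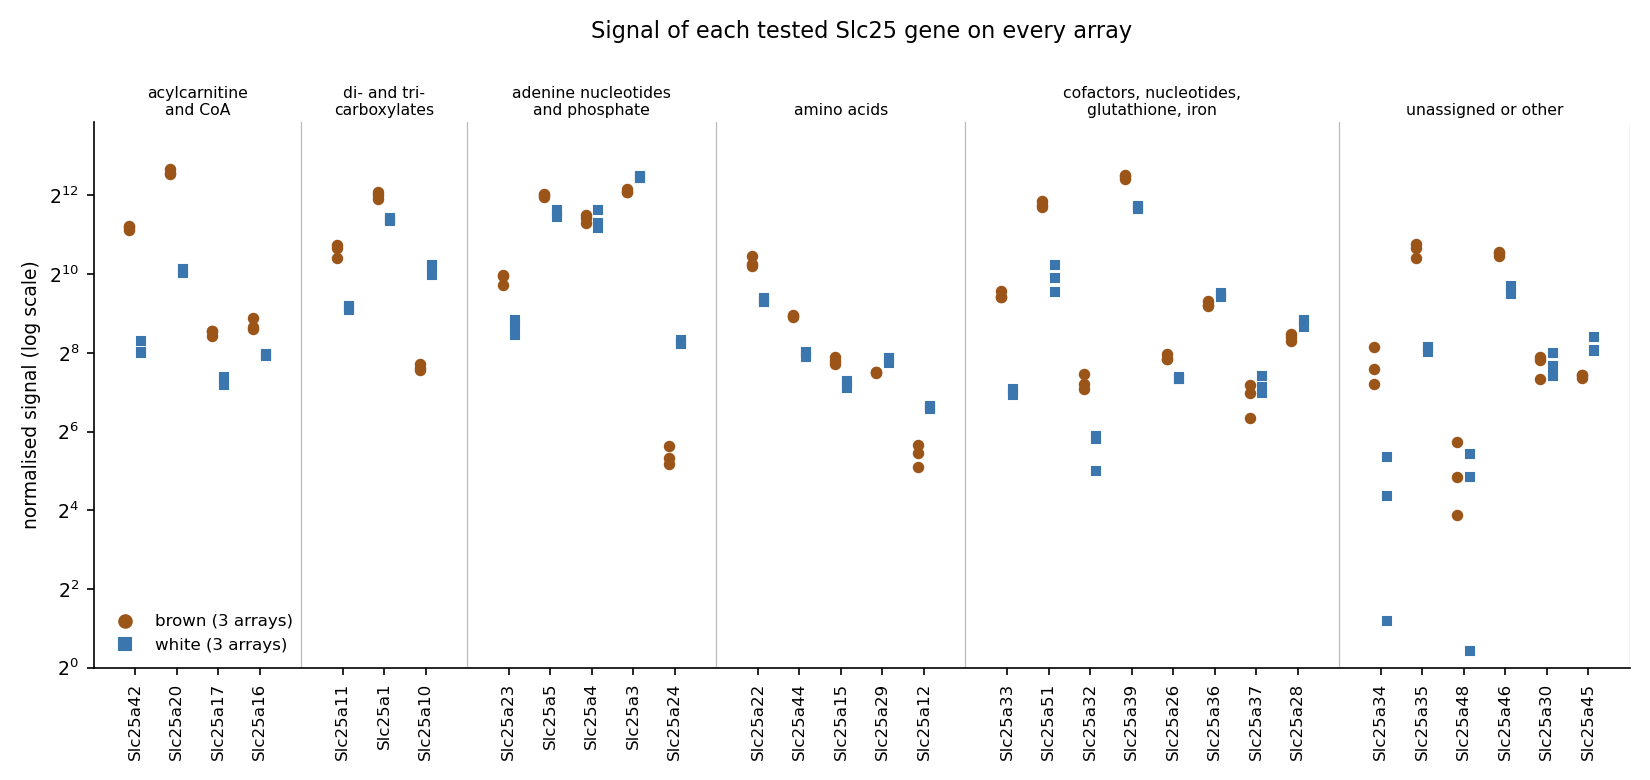
Normalised signal (log axis) of each tested Slc25 gene on the 3 brown arrays (circles) and the 3 white arrays (squares), with genes grouped by the substrate of the carrier. The acylcarnitine and coenzyme A group lies higher in brown throughout, whereas Slc25a10, Slc25a24 and Slc25a12 lie higher in white.

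Carriers of di- and tricarboxylates went in opposite directions. Slc25a11 exchanges malate for oxoglutarate in the malate-aspartate shuttle, which carries reducing equivalents into mitochondria. It read 1616, 1366 and 1717 in brown and 588, 542 and 570.0 in white, a difference of 1.46 (SE 0.0922, adjusted p = 5.98e-07). Slc25a1 exports citrate, from which the cytosol makes fatty acids. Its signals were 4369.9, 3868 and 4132 in brown against 2648, 2729.9 and 2603 in white, higher in brown by 0.63 (SE 0.0567, adjusted p = 7.7e-06). Slc25a10 exchanges malate and succinate for phosphate, and it was the member of this group higher in white. Its brown signals were 197, 189 and 210.4, the first of them called absent, and its white signals were 1014, 1160.4 and 1201. That is a difference of -2.50 (SE 0.0963, adjusted p = 1.95e-08), and the second probe set, absent on all brown arrays, read 108, 99.9 and 129.7 in brown and 577, 584 and 577 in white.

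Among carriers of adenine nucleotides and phosphate, brown was higher for 2 of 5 tested genes, white for 2, and 1 had no call. Slc25a5 encodes an ADP/ATP carrier, which trades matrix ATP for cytosolic ADP. Its brightest probe set read 4164, 3968 and 4104 in brown and 3159, 2941 and 2777 in white, a difference of 0.46 (SE 0.0575, adjusted p = 7.74e-05). All 8 of its probe sets were called higher in brown, with differences of 0.44 to 0.87. Identifiers ending in _x_at mark probe sets that can cross-hybridise, as this one may with its close paralogs, and its only probe set with a plain _at ending gave 0.76 (558, 549.6 and 592 against 294, 358 and 352).

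Slc25a4, the ADP/ATP carrier known as the form of heart and skeletal muscle, depended on the probe set. The brightest one read 2531, 2898 and 2766 in brown and 2316, 2519.6 and 3189.5 in white, where the groups overlapped, and was not called at 0.042 (95% interval -0.20 to 0.28, adjusted p = 0.767). A second, at 2692, 2487 and 2679 against 1373, 1455 and 1346, was higher in brown by 0.91 (adjusted p = 8.7e-07). The third, of the cross-hybridising kind, was higher by 0.72 (adjusted p = 6.21e-06), and the mean over the 3 probe sets gave a called difference of 0.56.

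Slc25a3 imports the phosphate needed for ATP synthesis. It was higher in white, at 4555, 4333 and 4314 in brown against 5523, 5715 and 5582, by a small margin with no overlap (-0.35, SE 0.0442, adjusted p = 8.95e-05). This direction turned when arrays were centred on their medians (0.19, adjusted p = 0.00897). Slc25a23 and Slc25a24 are paralogs that move ATP-Mg against phosphate under the control of calcium. Slc25a23 read 1013, 851 and 984 in brown and 458, 419 and 349 in white (1.22, SE 0.115, adjusted p = 1.07e-05). Slc25a24 went the other way, from 35.9, 49.9 and 40.3 in brown to 318, 305 and 301 in white (-2.89, SE 0.163, adjusted p = 2.65e-07), and it was called present on all 6 arrays.

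Carriers of amino acids comprised 3 genes higher in brown and 2 higher in white of 5 tested. The glutamate carrier Slc25a22 read 1188, 1219 and 1406 in brown and 641, 673 and 628 in white, a difference of 0.97 (SE 0.0824, adjusted p = 5.07e-06). Slc25a44, which carries branched-chain amino acids into mitochondria, had very even brown signals of 492, 496 and 484 against 261, 256 and 236 in white (0.97, SE 0.0916, adjusted p = 1.11e-05), and its other tested probe set was also called, at 0.72. The ornithine carrier Slc25a15 was higher in brown at 237, 212 and 222 against 138, 155 and 151 (0.59, adjusted p = 0.00197), but its other tested probe set was not called (0.17, adjusted p = 0.676). The call was lost with the deposited scaling (0.06, adjusted p = 0.684).

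Slc25a12 encodes aralar, the carrier that exchanges aspartate for glutamate in the malate-aspartate shuttle. It read 50.8, 44.1 and 34.2 in brown and 98.7, 99.5 and 94.4 in white, and was higher in white, with a log2 difference of -1.20 (SE 0.209, adjusted p = 0.000811). A second tested probe set was not called (-0.74, adjusted p = 0.0918). Slc25a29, a carrier of basic amino acids, read 184, 179 and 183 against 232, 215 and 232 (-0.31, adjusted p = 0.0333). This call was lost whichever single array was left out, with adjusted p from 0.0512 to 0.0965.

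Of the 8 tested carriers of cofactors, pyrimidine nucleotides, glutathione and iron, brown was higher for 5, white for 2, and 1 had no call. Slc25a51 brings NAD into mitochondria. Its signals were 3726, 3342 and 3441 in brown and 956, 1209.6 and 745 in white, where the arrays spread more for their level, and it differed by 1.88 (SE 0.144, adjusted p = 2.4e-06). The other 2 probe sets of Slc25a51 gave 2.94 and 2.62. Slc25a33, a carrier of pyrimidine nucleotides, read 754, 680.4 and 687 against 134, 134 and 121 (2.45, SE 0.101, adjusted p = 3.11e-08). Slc25a32, which serves folate and FAD transport, was near its detection limit, at 148, 136 and 177 against 58.7, 56.5 and 32 (1.69, SE 0.25, adjusted p = 0.000268), with 1 brown and 2 white arrays called absent. Slc25a39 carries glutathione into mitochondria. Its brightest probe set, of the cross-hybridising kind, read 5844, 5787 and 5422 against 3361, 3399.7 and 3245 (0.77, SE 0.0486, adjusted p = 6.05e-07), and its 4 tested probe sets all called brown higher, by 0.77 to 2.08.

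Slc25a26 carries S-adenosylmethionine, the methyl donor. It had 227, 248 and 229 in brown and 161, 167 and 161 in white, where all arrays were called absent, and was called higher in brown (adjusted p = 0.00256). With the deposited scaling the difference was -0.000672 (adjusted p = 0.996), while its other probe set gave 1.51 under quantile normalisation. Slc25a36, the second pyrimidine nucleotide carrier, was slightly higher in white at 590.2, 635 and 588 against 713, 689 and 734 (-0.24, adjusted p = 0.0239). Its adjusted p was 0.0641 without brown array 1, 0.0674 without brown array 3, 0.0576 without white array 1 and 0.0819 without white array 3, so the call was lost each time, and its other 2 probe sets were not called (0.21 and -0.20). The mitoferrins import iron. Slc25a28 was higher in white at 336, 359 and 314 against 405, 457 and 449 (-0.38, SE 0.0976, adjusted p = 0.00833). Slc25a37, known as the form of developing red cells, overlapped at 126, 144 and 80.7 against 141, 126 and 171 and was not called (-0.35, 95% interval -0.85 to 0.15, adjusted p = 0.215), although all brown arrays were called absent and all white arrays present. It was called higher in white with the deposited scaling (-0.89, adjusted p = 0.00463) and with spike-in scaling (-0.89, adjusted p = 0.00301).

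The remaining 6 tested members have no settled substrate or lie outside the inner membrane, with brown higher for 3, white for 1 and no call for 2. Slc25a34 read 191, 283 and 147 in brown, all present, and 2.27, 20.5 and 40.9 in white, all absent. It was called higher in brown (adjusted p = 0.00291), but its white level is not above background, and its log2 difference of 4.01 (SE 0.858) fell to 2.77 without white replicate 1, the lowest array, and became 4.84 without white replicate 3. Slc25a35, its close relative by name and sequence family, read 1609.9, 1359 and 1734 against 279, 259 and 282 (2.51, SE 0.1, adjusted p = 2.43e-08). Slc25a46, an outer membrane protein that takes part in mitochondrial shape, had 1506, 1471 and 1413 against 808, 829 and 723 (0.90, SE 0.074, adjusted p = 4.08e-06), and both its probe sets were called.

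The orphan carrier Slc25a45 was absent on all brown arrays at 163, 172 and 172 and present on all white arrays at 268, 262 and 338, and was called higher in white (adjusted p = 0.000614). Slc25a30 had overlapping signals of 237, 226 and 160.3 and 253, 169 and 204 and was not called by any of its 3 tested probe sets (-0.0094 for the brightest, adjusted p = 0.971). The deposited scaling (-0.53, adjusted p = 0.0274) and spike-in scaling (-0.53, adjusted p = 0.0479) called it higher in white. Slc25a48 scattered near background, at 29, 14.8 and 52.8 in brown and 28.7, 42.9 and 1.35 in white, with a 95% interval of -1.31 to 3.82 for its difference. Its estimate of 1.26 turned to -0.31 without white replicate 3.

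Ratios of related carriers within an array are free of any constant scaling of that array, though not of quantile normalisation. They were compared between tissues with exact two-sided permutation tests. With 3 arrays against 3 the smallest possible p is 0.1, or 0.125 after adjustment over the 5 pairs with both members tested. The log2 ratio of Slc25a23 to Slc25a24 averaged 4.51 ± 0.374 on brown arrays and 0.40 ± 0.164 on white arrays, a change of 4.11 (SD, n = 3, exact p = 0.1). For Slc25a10 over Slc25a11 it averaged -2.97 ± 0.104 on brown arrays and 0.99 ± 0.174 on white arrays, a change of -3.96 (SD, n = 3, exact p = 0.1). Slc25a33 over Slc25a36 changed by 2.68 (exact p = 0.1) and Slc25a4 over Slc25a5 by -0.42 (exact p = 0.1). None of these 4 ratios overlapped between tissues, but the last was separated by a narrow gap and its change became -0.071 with the mean over the probe sets of each gene. The mitoferrin ratio, Slc25a37 over Slc25a28, overlapped, with a change of 0.029 (exact p = 0.9). A changed ratio shows that the carriers differed unequally, and its level in one tissue does not show which transcript was more abundant.

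**Figure D4:**
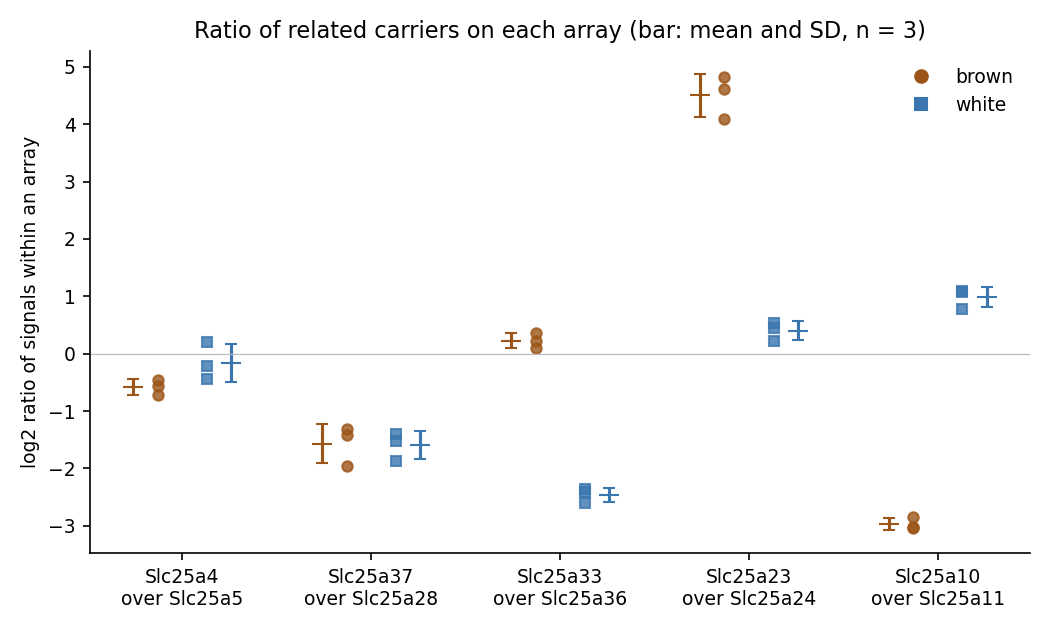
Log2 ratio of the signals of related carriers within each array (y axis) for 5 pairs, with circles for brown arrays, squares for white arrays and bars for the mean and SD of 3 arrays. Slc25a23 over Slc25a24 lies between 4.09 and 4.82 in brown and between 0.21 and 0.53 in white, and Slc25a10 over Slc25a11 lies between -3.04 and -2.85 in brown and between 0.79 and 1.10 in white.

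The other 11 members did not pass the filter. Of these, 8 were called absent by all their probe sets on all 6 arrays, namely Slc25a13, the second aspartate-glutamate carrier, known as citrin, the glutamate carrier Slc25a18, the testis ADP/ATP carrier Slc25a31, the glycine carrier Slc25a38, Slc25a40, Slc25a41, Slc25a47 and Slc25a54. Absent calls do not mean equal signals: Slc25a38 read 238, 232 and 352 in brown and 176, 183 and 167 in white. The other 3 had scattered calls in white alone. Slc25a25, an ATP-Mg carrier, read 125, 104 and 92.6 in brown and 191, 183 and 216 in white, where 2 arrays called it present and brown called it absent throughout. Slc25a2 and Slc25a53 were present on 1 and 2 white arrays, though their mean signals were higher in brown. Slc25a2 read 57.5, 66.9 and 54.2 in brown and 15.7, 17.9 and 31.9 in white. The probe set of Slc25a53 with these calls read 186, 137 and 164 in brown and 122, 113 and 140 in white, where the groups overlapped.

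Among the uncoupling proteins, which share the carrier fold, Ucp1 was higher in brown, with 12942 ± 267 against 26.1 ± 31.7 in white, where no array called it present (mean ± SD, n = 3), and Ucp3 differed by 2.26 (714 ± 22.1 against 149 ± 3.36). Transporters of mitochondria outside the family were mostly higher in brown as well, with brown higher for 11 of 19, white for 4 and no call for 4, and a median log2 difference of 0.85. Letm1, an ion exchanger of the inner membrane, had 903 ± 126 against 131 ± 5.11 (SD, n = 3; 2.77, limma adjusted p = 3.84e-08). The ABC transporters Abcb8 and Abcb10 differed by 2.38 and 1.36, the sideroflexin Sfxn5 by 1.58, and Mtch2 and Mtch1, outer membrane relatives of the carriers, by 1.44 and 1.21. The serine carrier Sfxn1, named after its value was seen, was higher in white (-0.91, adjusted p = 8.37e-06). The others called higher in white were Slc8b1 (-0.87), Sfxn3 (-0.85) and Tspo (-0.34).

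Enzymes that make or use the carried metabolites were higher in brown for 14 of 24, in white for 6 and not called for 4 (median 0.46). Gpd1 (2.16) and Gpd2 (2.96) form the glycerol phosphate shuttle, a route for reducing equivalents beside the malate-aspartate shuttle. Cpt2, which takes over the acylcarnitines delivered by Slc25a20, differed by 1.85, whereas Cpt1a, which makes acylcarnitines at the outer membrane, was higher in white (-2.12). Bckdha, of the branched-chain ketoacid dehydrogenase, differed by 1.98 and the isocitrate dehydrogenase Idh2 by 1.82. The partners of Slc25a11 and Slc25a1 were named after their values were seen. Of the malate-aspartate enzymes, Mdh1 (0.37), Mdh2 (0.997) and Got1 (1.17) were higher in brown, and Got2 was not called at -0.053 (adjusted p = 0.586). Acly, which splits the citrate exported by Slc25a1, was higher in brown by 0.78. Besides Cpt1a, the enzymes called higher in white were Oat (-1.32), Pcx (-0.83), Bcat2 (-0.55), Idh1 (-0.34) and Alas1 (-0.30).

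Markers of other cells moved with the tissues too. All 10 macrophage markers were higher in white, with a summed signal of 3175 to 3675 on brown arrays and 20034 to 20659.6 on white arrays. All 8 mesothelial markers (261 to 323 against 2448 to 2682) and all 7 fibroblast markers (9627 to 10311 against 34415 to 35198) were higher in white, and 5 of 8 endothelial markers were (2699.5 to 2964 against 3960.4 to 4054). The part of these cells in the carriers higher in white, such as Slc25a24 and Slc25a10, was not tested. Skeletal muscle markers had summed signals of 1542 to 2185 in brown and 788 to 903 in white. Of 14, 8 were absent on every array by their brightest probe set, among them Ckm, Tnnt3 and Mylpf. Absent calls do not mean equal signals here either. Mylpf read 43.3, 92.9 and 25.9 in brown and 3.78, 2.58 and 3.62 in white. Myh2 and Ckm were also higher in brown without overlap, while the other absent markers overlapped. Myh4, Myh1 and Atp2a1 did not pass the filter but were called present on brown arrays 1 and 2 and on no other. Atp2a1 read 134, 158 and 45.1 in brown and 53.6, 52.1 and 51.4 in white. Of 3 tested, Myl1 was called higher in brown (1.74) and the others were not called. These were Casq1 (0.78, adjusted p = 0.0538) and Acta1 (-2.51, adjusted p = 0.122), the latter present on all white arrays and 1 brown array. Erythroid markers gave 386 to 439 against 287 to 357 with both tested genes not called. The brightest probe sets of all 7 testis and epididymis markers were absent on every array. All 10 brown adipocyte markers were higher in brown and all 6 tested white adipocyte markers in white, as the tissue labels say.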

How the data were processed

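RNA of 6 samples was hybridised as biotin-labelled cRNA to 1-colour arrays. The deposited array files hold, per the file headers, 1 linear intensity per probe set with its detection call and p-value, for 45101 probe sets. What software and scaling made them is not stated here. After 64 controls were left out, 34945 of 45037 probe sets had 1 symbol in the platform annotation and 932 had several. The deposited table of the whole series also holds linear intensity values, of unstated processing, with column medians of 64.3, 62.9 and 63.8 for brown and 56.7, 56.8 and 55.9 for white; each of its 6 columns matched best an array file of the other tissue, so it served only as an alternative. Its direction is therefore opposite, and its scale and centring stay unknown.

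The log2 intensity (1 signal of 0 set to 0.1) was quantile-normalised and fitted with limma 3.58.1 in R 4.3.3 (eBayes with trend), without covariates, on 19819 probe sets. A gene's call is that of its brightest tested probe set, adjusted over all 19819. Where all arrays of the dimmer tissue were absent, no lower bound on the fold is given. The lowest present signal of an array lay below most of these signals and gave no firm bound. Log2 differences printed or drawn for such members, as for Slc25a34 and Slc25a37, are estimates whose size is not fixed. The fit was run on simulated log2 values with independent normal noise and 200 changed probe sets. That run covered neither the quantile normalisation nor the much larger share of probe sets called in the real data. It therefore does not bear on those steps. Members, gene lists and motifs were chosen with earlier results of these data known; the rule asked for array values of the called members furthest from 0, the paralog pairs and the brightest uncalled members, which here were extended to all tested members, and for up to 6 genes of each other list with the largest called difference. Alternatives changed the scaling, an added signal, the filter, the probe set rule, the samples and the block. Ucp2 and members without their own probe set were not analysed here.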

Additional observations from a re-analysis of the deposited data

How the results depend on the processing

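Across 15 alternatives (scaling, 64 signal units added, detection filter, probe set rule, single arrays left out, replicate block), 21 of 31 members kept their direction and their side of the threshold wherever they were tested. The family median of 0.77 became 0.50 with the deposited scaling and 0.50 with spike-in scaling, 0.95 with median centring, 0.62 with 64 units added, 0.56 without the detection filter (42 genes), 0.85 with the mean over probe sets and 0.97 without _s_at, _x_at and _a_at probe sets, where 5 genes were higher in white among 25 tested. Leaving out single arrays gave medians of 0.63 to 0.79, 19 genes higher in brown each time and 6 to 7 higher in white. The replicate block gave 19 and 6, losing Slc25a36 (adjusted p = 0.0510) and Slc25a29 (0.0676); deviations of same-numbered arrays correlated at 0.0172, -0.0138 and -0.0460, so the numbers were not taken as pairs. For the carrier ratios the block left the differences as they were and allows no p below 0.25. The value table of the series, with columns by their labels, gave 9 higher in brown, 13 in white and a median of -0.25. Shares of all genes called under these alternatives are not given beside the counts. Scaling also moves the median over all genes, so the family medians alone do not show how far the family lay from all genes.

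Signs turned for Slc25a3 with median centring (0.19), for Slc25a36 without _s_at, _x_at and _a_at probe sets (0.21), and for Slc25a26 with the deposited scaling (-0.000672). Uncalled members also turned. Slc25a4 gave -0.0268 with deposited and -0.0261 with spike-in scaling, and -0.0569 (without white replicate 1) to 0.18 (without white replicate 3) over single arrays left out. Over single arrays left out, Slc25a30 ranged from -0.15 to 0.17, Slc25a48 from -0.31 to 2.17 and the Slc25a37 to Slc25a28 ratio from -0.11 to 0.23, and this ratio was -0.0622 with the deposited, spike-in and median scalings. Calls were gained for Slc25a30 (-0.53 and -0.53) and Slc25a37 (-0.89 and -0.89) with deposited and spike-in scaling, for Slc25a4 with median centring (0.42) and the mean over probe sets (0.56), and for Slc25a48 without the detection filter (3.57, adjusted p = 0.00092), which is read from another probe set, absent on every array. Causes were not tested. The 3 arrays a tissue limit what small differences can be called, and dim members such as Slc25a32, Slc25a34 and Slc25a48 lie near background in white.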

Other observations

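The deposited table of the whole series gave the opposite sign to the array files for 27 of the 31 tested members and the same sign for 4. Of the 27 called members, 24 had the opposite sign. Each brown column of that table correlated best with the white array file of the same replicate number, and each white column with the brown file of the same number.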
